A study of Apis mellifera with 9 samples.

Results

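Circular RNAs of the honey bee (Apis mellifera) worker ovary were described from the 3 RNase R libraries of a series of 9, the libraries that the labels name as circRNA. Their table lists 11794 back-splice junctions, each with a value above 0 in at least 1 of the 3 libraries. The series sampled 1 biological group with no treatment: ovaries of worker bees collected 4 days after emergence, from 5 colonies kept with sister queens, with brood frames held at 34 °C and 80% humidity. Each pool combined 40 ovary pairs from a single colony, so the 3 libraries stand for 3 colonies and a difference between individual bees cannot be seen. Under each pool number there are also a library of rRNA-depleted linear and other long RNA (called RNA-seq here) and a small RNA library. Where 3 values stand in a row, they are pools 1, 2 and 3 in that order.

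A circRNA forms when the spliceosome joins a downstream splice donor back to an upstream acceptor, which closes 1 or more exons, at times with their introns, into a ring. The ring has no free ends, so the exonuclease RNase R, which digests linear RNA from its 3′ end, leaves it in the sample, and in cells circRNAs are known for slow decay. A gene can yield several alternative circles when 1 acceptor is joined to different donors, or 1 donor to different acceptors. In flies and mammals many circRNAs come from long genes of the nervous system and of development, and their level often differs from that of the linear transcript of the same gene.

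The circRNA level is given as SRPBM, back-spliced reads scaled to a total of each library, a unit that does not divide by length. The libraries held 7009, 6373 and 8344 junctions, with summed SRPBM of 13817484, 16504579 and 13674720. All values of a library were whole multiples of 1 step (10.8, 12.1 and 10.4 SRPBM), and the lowest listed value was 2 steps in each. Whether 1 step is 1 read was not checked, so the read depth is unknown and no counting interval is given. The median junction stood at 45, 50 and 33 steps, and pool 3 listed the most junctions and the largest share at 10 steps or fewer (6.41%, 5.92% and 12.4%).

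The tissue label was checked in the RNA-seq libraries of the same pool numbers. All 12 features matched to ovary and germ line markers, among them vas, nanos and aub, averaged an FPKM (fragments scaled to length and library size) of 1 or more, and they summed to 419, 634 and 654 FPKM. All protein-coding genes outside the lowest quintile of FPKM also passed that cut, at 1.62 or more, so it does not single out these markers. Markers of other tissues were also present. The 11 muscle features summed to 1320, 682 and 602 FPKM, the 8 gut features to 97.8, 2.97 and 4.59, the 5 fat body features to 258, 137 and 112, the 7 royal jelly proteins of head glands to 14.4, 7.34 and 10.6 and the 2 nerve features to 40.7, 39.7 and 33.3. The muscle, gut, fat body, head gland and nerve sums were highest in pool 1, and the ovary sum was lowest there. Much of the ovary sum came from orb (LOC411907), at 110, 280 and 275 FPKM. Of the head gland and nerve features, 4 of 7 and 1 of 2 were highest in pool 1. Pool 1 was highest for 10 of the 11 muscle features, 8 of the 8 gut features and 2 of the 5 fat body features, whose sum was carried by Hex70a, a storage protein, at 199.9, 79.97 and 70.07 FPKM. It was lowest for 10 of the 12 ovary features. In bulk tissue, fewer cells of a type and less RNA per cell cannot be told apart.

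A small number of circles held much of the signal. The strongest circle alone took 1.94%, 1.74% and 1.95% of a library's SRPBM, the 10 strongest 9.33%, 10.4% and 9.63%, and the 100 strongest 34.2%, 36.5% and 34.5%. In each library 50% of the signal lay in 260, 222 and 254 junctions. In the RNA-seq libraries, 50% of the FPKM of protein-coding genes lay in 465, 609 and 585 genes.

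The strongest circle came from LOC408536, an angiotensin-converting enzyme-like gene of a family of metallopeptidases (LG15:5368192-5375154, minus strand, 6.96 kb). It stood at 267681, 287331 and 267251 SRPBM, a mean of 274088 ± 11471 (SD, n = 3). The pools lay close together, with a CV of 4.19%, and the next circle was lower in every library. The circle of LOC410517, a gene named after FAM20C, which in mammals is a kinase of secreted proteins, had 132540, 210345 and 135605 SRPBM. The circle of LOC412839 (homeobox protein caupolican, with mirror as nucleotide match, both Iroquois transcription factors in flies) had 131569, 186464 and 128502. The circle of LOC410006, matched to radish, a gene named for a memory phenotype in flies, had 127534, 169036 and 147512. Pool 2 was highest for all of these circles.

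The circle at rank 5 had no source gene in the table (LG1:1120280-1120966, plus strand, 0.687 kb), with 109418, 153441 and 116397 SRPBM. LOC552005, an uncharacterised gene, was the source of a pair of the 20 strongest circles, which share 1 boundary on LG7 (position 640673). The longer of the pair, 8.24 kb, had 131666, 127908 and 116230 SRPBM, and the shorter, 3.09 kb, had 76358, 91869 and 69980. The longer circle was above the shorter in every pool, and they made 52.7% and 33.4% of the gene's circular signal.

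Enzymes of cyclic nucleotide breakdown gave 2 of the 20 circles. LOC410379, a phosphodiesterase gene that the table names after type 11 by protein and type 9 by nucleotide match, had a 0.613 kb circle at 87612, 169735 and 102808 SRPBM, and LOC724389, a calcium- and calmodulin-dependent phosphodiesterase 1C gene, a 1.14 kb circle at 68709, 94028 and 88969. LOC413242, an enzyme that modifies heparan sulfate chains, gave 94895, 118705 and 116146 SRPBM. Genes of signalling and cytoskeleton followed, with the titin-like LOC410204 at 87925, 139703 and 97502 and the rho GTPase-activating LOC410044 at 104617, 108477 and 85303. LOC410717, a par-1 type kinase that acts on microtubule-associated proteins, had 66389, 93353 and 72278. Genes for proteins that bind nucleic acids were LOC725393 (TIS11-like, of a family that binds AU-rich mRNA) at 75862, 143949 and 69019, LOC724885 (a zinc finger gene) at 81160, 99528 and 77751, LOC551432 (a zinc finger and BTB domain protein) at 71546, 77528 and 63431, and LOC725422 (box A-binding factor-like) at 62699, 67542 and 61217. The highest library reached 2 times the lowest for 2 of the 20 circles, LOC725393 and an unassigned circle on LG15 (51380, 121346 and 63797 SRPBM).

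Across the 20, the coefficient of variation (CV) over pools had a median of 15.1%, with a range of 4.19% to 47.3%, and pool 2 was highest for 19 circles and pool 1 for 1. The 20 circles made 15.2% of the summed mean SRPBM. By span, 6 were under 1 kb, 13 between 1 and 10 kb and 1 over 10 kb (LOC411586, 18.8 kb). Of the 18 with a source gene, 17 were the strongest circle of that gene and held 50% or more of its circular signal. All but 1 of the 20 shared a start or an end with another circle. The plot of the 20 circles by library shows each pool's value.

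**Figure D1:**
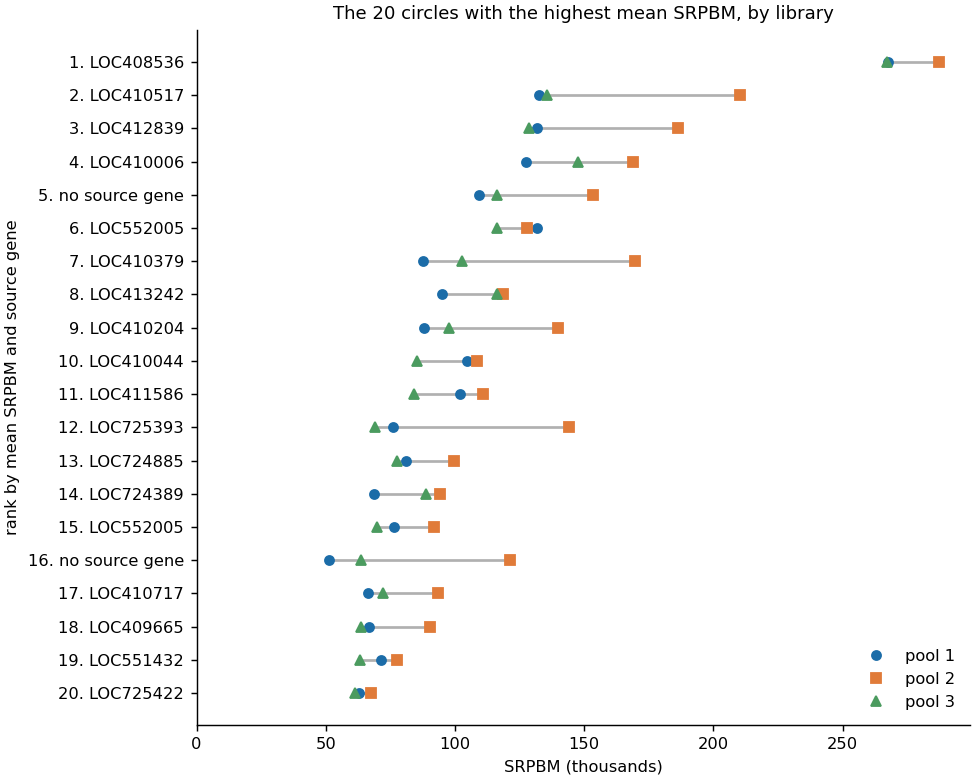
SRPBM (in units of 1000, linear axis) of the 20 circles of highest mean, ranked from the top, with 1 point per pool and a grey line from the lowest to the highest pool. The circle of LOC408536 stands apart at 267251 to 287331 SRPBM, and pool 2 is the rightmost point for 19 of the 20.

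Junctions were spread over all 16 linkage groups (LG), which held 11604 of them (98.4%). The other 190 lay on 80 unplaced scaffolds and 0 on the mitochondrial genome. Over the linkage groups there were 52.9 junctions per Mb, with the last position listed in the tables taken as the length. LG1 held the most, 1750 (14.8%), and the share was 15.1%, 14.9% and 15.1% by pool. The number of junctions followed that length across the 16 linkage groups (Spearman's rho 0.81), while junctions per Mb did not follow it (rho -0.16). Both are descriptions over linkage groups of the same libraries.

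Density differed between linkage groups. LG13, LG14 and LG4 had 63.6, 62.6 and 62.6 junctions per Mb, against 40.8 for LG7, 43.1 for LG12 and 43.9 for LG6. LG13 was highest also against its genes, with 2 junctions per listed protein-coding gene and 29.97% of those genes as sources. On the other linkage groups junctions per coding gene ran from 0.893 (LG15) to 1.44 (LG6). LG13 carries tensin-1, Foxp and abrupt (LOC726547), which are described below as rich sources. Such sources also lie elsewhere, as LOC409786 and LOC725964 on LG6, which was among the lowest per Mb, and LOC410696 and LOC408579 on LG1. Linkage groups with a larger share of coding genes over 20 kb had more junctions per coding gene (rho 0.61, 16 linkage groups).

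Over the genome the strands held similar numbers of junctions. Of the 11794 junctions, 5819 (49.3%) lay on the plus strand and 5975 on the minus strand. By pool the plus share was 49.2%, 50.1% and 49.1%, and plus minus minus averaged -1.05 percentage points (two-sided exact sign-flip permutation test, p = 0.5, n = 3, where the smallest p possible is 0.25). Single linkage groups lay farther from 50%, at 64.0% plus on LG16, 58.3% on LG14, 40.1% on LG10 and 36.0% on LG15. On LG16 the plus share was 63.9%, 62.4% and 61.6% by pool and on LG15 34.2%, 35.0% and 34.2%, so each library gave the same side. The source genes of LG16 were 59.1% plus and those of LG15 42.9% plus, against 52.2% and 50% for all coding genes there. On LG14 the source genes were 46.8% plus, on the other side of 50% from the junctions, and on LG10 45.8% plus. Over the 16 linkage groups the plus shares of junctions and of coding source genes had a rho of 0.51.

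**Figure D2:**
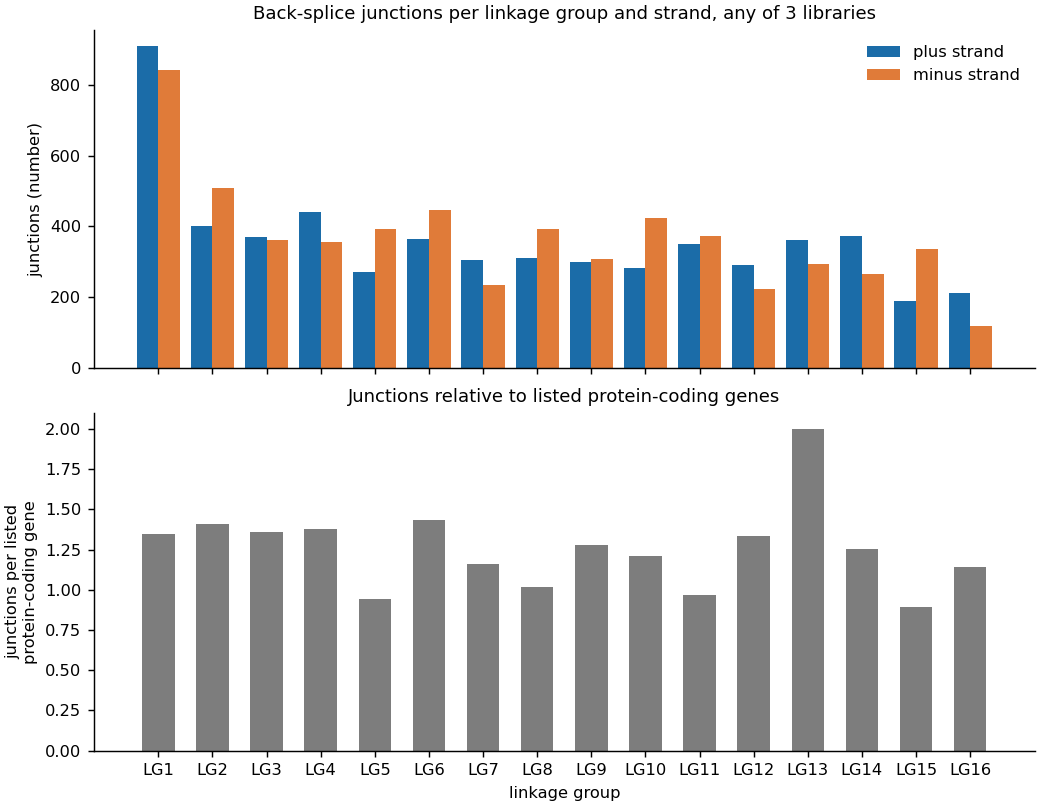
Top, number of junctions on the plus and the minus strand of each linkage group, over all 3 libraries. Bottom, junctions per listed protein-coding gene, where LG13 stands highest at 2 and LG15 lowest at 0.893.

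Most circles came from protein-coding genes. The table assigns 10001 junctions (84.8%, with 92.2% of the mean SRPBM) to a single source gene, 181 (1.53%) to several entries and 1612 (13.7%, with 7.55% of the SRPBM) to none. Protein-coding genes were the source of 9703 junctions from 2119 genes, with 90.4% of the SRPBM, and lncRNA genes of 292 junctions from 153 genes, with 1.78%. In 154 of the 10000 junctions whose source is in the RNA-seq table (1.54%) the junction lay on the strand opposite to its gene. Of the unassigned junctions, 380 lay within a listed gene on the same strand, 283 within one on the other strand only, 687 overlapped a listed gene in part and 262 overlapped none. Detection in all 3 libraries held for 34.7% of the assigned junctions and 20.5% of the unassigned ones.

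From start to end in the genome, introns included, circles covered a wide range of spans. The median span was 2734, 2830 and 2724.5 bp by pool and 2809.5 bp over all junctions. The middle 50% ran from 988 to 10552 bp, and the extremes were 137 and 197869 bp. Under 1 kb lay 2986 junctions (25.3%), from 1 to 10 kb 5763 (48.9%) and over 10 kb 3045 (25.8%). Weighted by SRPBM, the median span was shorter, at 1949, 1706 and 1816 bp. Junctions over 10 kb held 15.1% of the SRPBM, and 27.7% of them were seen in all 3 libraries, against 34.9% of those between 1 and 10 kb. The 10% of junctions with the highest mean had a median span of 2037.5 bp, against 3120 bp in the lowest 10%.

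Very short and very long circles were also present in all 3 libraries. The shortest such circle (178 bp, LG6:2587079-2587256) belonged to LOC724655, a transmembrane and TPR repeat gene, at 1413, 1689 and 971 SRPBM. The longest, 192934 bp, belonged to LOC413968, which encodes dystrophin, the protein that links the muscle cytoskeleton to the membrane, at 410, 434 and 31.3 SRPBM. In that gene it made 0.352% of the circular signal. A 191267 bp circle of LOC100578423 had 2255, 302 and 366 SRPBM and a 187982 bp circle of the collagen XVIII gene LOC412865 had 583, 1351 and 1400. The levels of these long circles differed 2.4-fold to 13.9-fold between pools, and those of the 3 shortest circles 1.67-fold to 12.1-fold. The widest of each set had a value of only 3 and 2 steps in its lowest pool. Over all junctions seen in all 3 libraries the median was 2.09-fold.

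**Figure D3:**
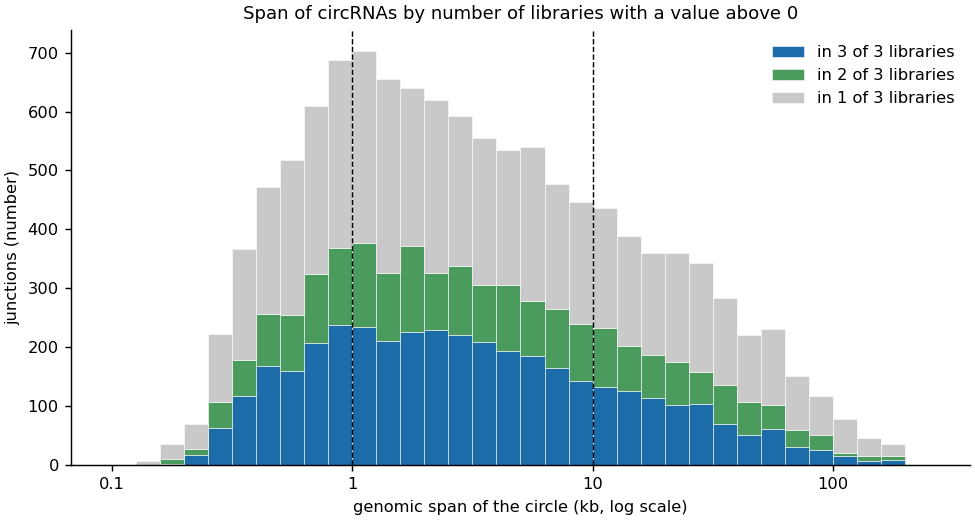
Number of junctions by genomic span (kb, log scale), stacked by the number of libraries with a value above 0; dashed lines mark 1 and 10 kb. The most junctions lie between 1 and 10 kb (5763, 48.9%), and the shortest junction in all 3 libraries spans 178 bp.

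Within their genes, circles sat nearer to the 3′ end of the gene as listed. For 9538 junctions of 2070 coding genes that lay on the strand of and inside their gene, the median share of the gene before the circle was 63.5%, against 21.5% after it, and the circle itself spanned 6.84%. By pool the median share before the circle was 64.1%, 64.4% and 63.8%. More gene lay before than after the circle in 72.0% of these junctions. The last 10% of the gene held the end of 27.5% of the junctions, and the first 10% held the start of 7.19%. Counting only the strongest circle of each gene, the shares were 57.9% before and 26.3% after.

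Alternative circles were common. Of the 11794 junctions, 9139 (77.5%, with 91.4% of the SRPBM) shared their start or their end with another junction, 4225 (35.8%) shared both and 2655 shared neither. Within single libraries the share was 72.1%, 72.9% and 74.8%. Junctions in all 3 libraries shared a boundary more often (88.7%) than those in 2 (80.4%) or in 1 (68.8%). Their partners were sought among all 11794 junctions. With partners also required in all 3 libraries, the share was 69.2%, below the 77.5% of all junctions. The median mean level was 205 SRPBM with a shared boundary and 104 SRPBM without one.

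The boundary that lies upstream in the direction of transcription was reused slightly more than the downstream one. There were 7323 upstream positions, of which 33.4% served more than 1 circle, and 7664 downstream positions, of which 30.2% did. Positions used by 10 or more circles numbered 11 upstream and 5 downstream. Where 3 or more circles shared the upstream boundary (1066 groups), the strongest circle was the shortest in 35.3% of groups and the longest in 16.6%, where equal odds for each circle would give 27.8%. For a shared downstream boundary (985 groups) the values were 33.5% and 19.1%, against 28.0%.

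The position used most often as a start lay in Cac, which encodes cacophony, the pore-forming subunit of a presynaptic calcium channel (LG3, plus strand, position 1091331). It opened 19 circles of 243 to 99048 bp, 10 of them in all 3 libraries, with summed SRPBM of 29434, 29743 and 24660. One circle held 53.9% of that sum. A position in Foxp, a forkhead transcription factor (LG13, 4968639), opened 11 circles with 23155, 36774 and 21475 SRPBM. Positions on LG1 in LOC410706 (rho GTPase-activating protein 7), LOC410696 (ADAMTS-like 1, a secreted matrix protein) and LOC408579 (thrombospondin type-1 repeats, papilin-like) opened 10 circles each.

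The end used most often, on LG1 at position 25007835, closed 20 circles of 3830 to 197869 bp, of which 3 were in all 3 libraries. Their summed SRPBM was low, at 4629, 3281 and 7990, and most carried no source gene. On LG6, 14 circles of the uncharacterised LOC725964 shared an end, which on the minus strand is the upstream boundary. A further 13 shared an end in the formin-type gene LOC409786, of which 12 were assigned to that gene alone. Circles sharing 1 end could still be unequal: at an end in LOC726349 (actin-binding LIM protein 2-like), 11 circles met, 10 of them assigned to the gene, and 1 held 79.5% of their signal, and in LOC410694 (collier, a transcription factor) 1 of 11 held 84.9%.

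Of the 2275 source genes, 1355 (59.6%) had 2 or more circles and 920 had 1. The mean was 4.40 circles per gene and the median 2. The 283 genes with 10 or more circles (12.4%) held 49.1% of the circles with a single source and 61.7% of the SRPBM of those circles. The share of genes with several circles within a library was 56.1%, 57.4% and 57.9%.

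The gene with most circles was LOC409786, FH1/FH2 domain-containing protein 3, a formin of the actin cytoskeleton, which spans 256241 bp on LG6. It had 58 circles, with 33, 43 and 45 in pools 1 to 3 and 23 in all of them. Its summed SRPBM was 25464, 39862 and 29319 and its strongest circle held 9.06%, the lowest share among genes with 10 or more circles. Cac and LOC410696 had 51 circles each, with 39134, 41273 and 34395 SRPBM and 92975, 94004 and 94076 SRPBM. The summed level of LOC410696 thus varied little over pools (SD 616), although it had 33, 33 and 45 circles. Tensin-1 (LOC408429), which links integrins to actin, had 47 circles and 116604, 144696 and 104281 SRPBM. Foxp had 45 circles, LOC410553 (transcription factor 12, matched to the fly gene daughterless) 42, LOC408579 41, LOC408779 (matched to short stop, a cytoskeletal linker in flies) 40, LOC725964 40 and LOC409665 (an abhydrolase domain gene) 37.

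One circle usually led. It held 50% or more of the gene's SRPBM in 953 of the 1355 genes with several circles (70.3%), at 68.7%, 70.7% and 68.9% by pool. With 2 circles that is given by arithmetic, and among the 992 genes with 3 or more it held for 590 (59.5%). A share of 75% or more was reached in 430 of the 1355 (31.7%). The median share of the strongest circle was lower in genes with more circles, at 78.2% with 2 circles (363 genes), 64.2% with 3 to 4 (357), 56.1% with 5 to 9 (352) and 42.5% with 10 or more (283). Over the same classes the median gene span was 17732, 30579, 44940 and 100156 bp.

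Among genes with 10 or more circles, the phosphodiesterase gene LOC410379 was the most dominated, with 91.2%, 95.1% and 93.0% of its SRPBM in 1 of 12 circles. It was followed by a pair of genes named after abrupt, a BTB zinc finger transcription factor in flies, LOC551086 (91.1% in 1 of 11) and LOC726547 (89.8% in 1 of 16). The least dominated after LOC409786 were LOC413210 (cadherin-89D-like, an adhesion protein), with 18.7%, 8.21% and 10.4% in its strongest of 29 circles, and LOC725964, with 9.35%, 16.7% and 13.1%. In the 3 most dominated genes the leading circle held 88.03% or more in every pool, while in LOC413210 and LOC725964 it held 18.7% or less.

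The leading circle was often the same one in each library. Of 1127 genes with several circles and a value in all 3 libraries, 718 (63.7%) had the same strongest circle in all of them and 90 (7.99%) had a different one in each. Where the strongest circle held under 50% of the gene's signal, it was the same in 35.8% of 371 genes. At 50% to 75% it was the same in 63.5% of 395 genes, and at 75% or more in 92.5% of 361. Since the share is a mean over the same libraries, this order is a description.

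**Figure D4:**
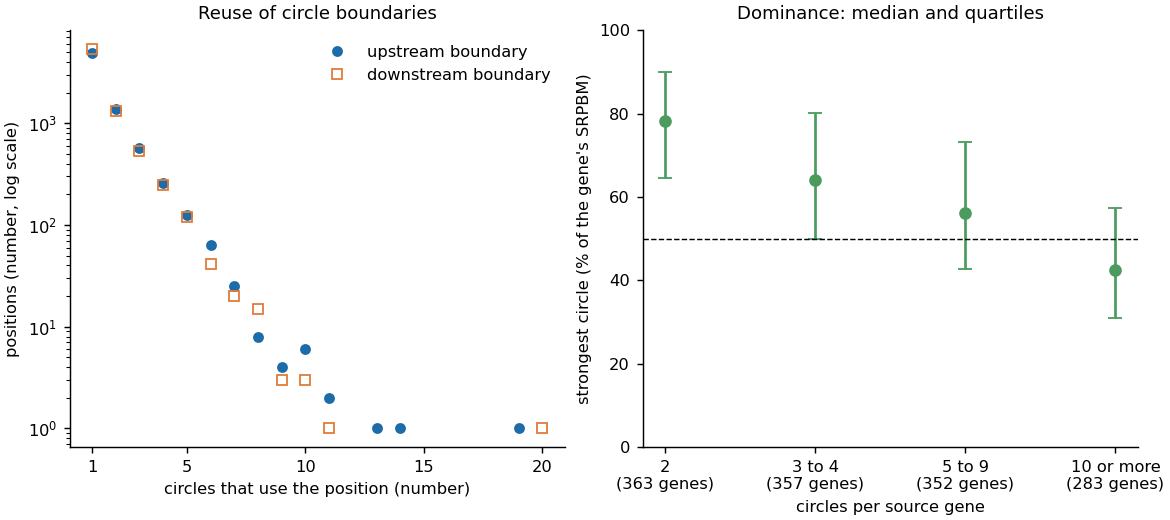
Left, number of genomic positions (log scale) by the number of circles that use them as upstream or downstream boundary. Right, percent of a gene's SRPBM in its strongest circle, as median with quartiles, by number of circles; the dashed line marks 50%, and the median lies below it with 10 or more circles (42.5%).

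Agreement between libraries depended on level. In all 3 libraries were 3825 junctions (32.4%), which held 92.3% of the mean SRPBM. Seen in 2 were 2282 (19.3%, with 4.32% of the SRPBM) and in 1 were 5687 (48.2%, with 3.40%), of which 1724, 1341 and 2622 were in pools 1 to 3 alone. Within a library, the median log2 SRPBM of junctions seen in all 3 was 10.001, 10.19 and 9.92, against 8.13, 8.35 and 7.71 for the others. The difference was 1.98 ± 0.21 (SD, n = 3), of the same sign in 3 of 3 libraries, and the exact sign-flip permutation test (two-sided) gave p = 0.25, the smallest that 3 libraries allow.

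Pairs of libraries shared 45.9% (pools 1 and 2), 46.9% (1 and 3) and 46.1% (2 and 3) of the junctions seen in either, and shared junctions held 92.8% to 96.2% of a library's signal. Over shared junctions Spearman's rho was 0.762, 0.779 and 0.778 (4210, 4900 and 4647 junctions). Pearson's r of log2 SRPBM was 0.810, 0.829 and 0.831, and 0.861, 0.899 and 0.907 in the 10% with the highest mean. These correlations run across junctions of the same libraries, which are not independent replicates. The 20 strongest circles of each library had 17 in common (23 in their union), and the 100 strongest had 80 (119).

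Low values were often seen once. Of junctions with 20 to 39 steps in a library, 41.7%, 33.2% and 40.4% were at 0 in both others. From 80 to under 160 steps the shares were 2.44%, 1.65% and 1.59%, and from 320 steps on they came to 1, 2 and 0 junctions. Junctions seen in a single library had a median of 20 steps, and 2913 of them (51.2%) had 20 or more and 19 had 100 or more. Deposited zeros therefore stand beside values well above the lowest listed value of 2 steps. How the authors' detection treats low junctions is not stated in the labels or headers.

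**Figure D5:**
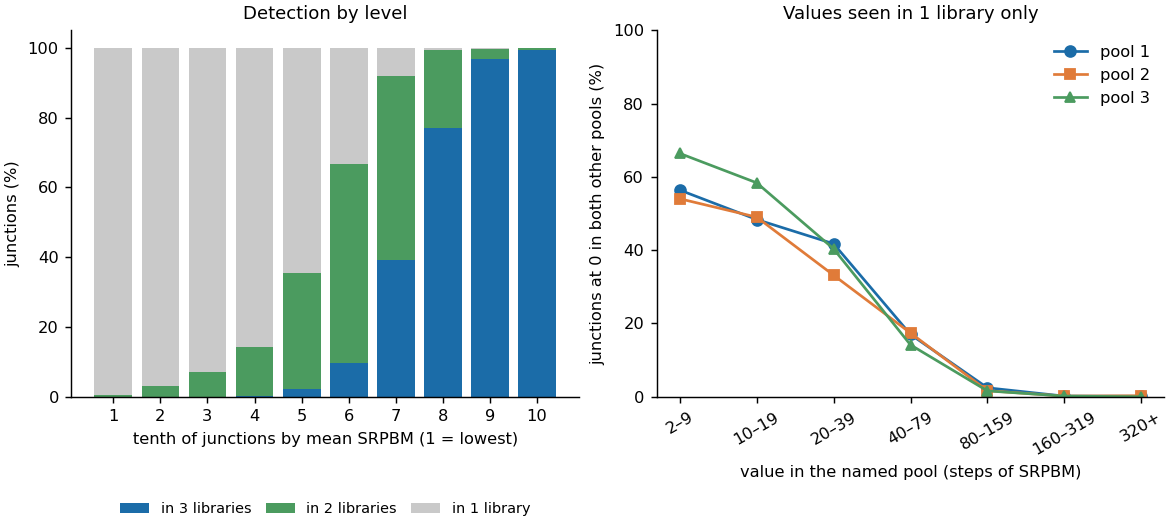
Left, percent of junctions in 3, 2 or 1 libraries by 10% class of mean SRPBM, a mean that includes zeros. Right, percent of a pool's junctions that were at 0 in both other pools, by the value in steps, which falls from 33.2% to 41.7% at 20 to 39 steps to 1.59% to 2.44% from 80 to under 160 steps.

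Levels of junctions seen in all 3 libraries still varied between pools. Their median CV was 37.4%, and in 2041 of 3825 the highest library was 2 times the lowest or more (53.4%). In the 10% with the highest mean, 1172 of 1180 were in all 3 libraries, with a median CV of 25.2%, and 307 reached 2-fold (26.2%). After scaling the libraries to equal totals, a setting chosen after the data were seen, 260 did (22.2%). Of the 307, 69 were highest in pool 1, 192 in pool 2 and 46 in pool 3. Pool 2 also had the highest summed SRPBM. In the 10% of protein-coding genes with the highest FPKM, 174 of 1028 reached 2-fold between RNA-seq libraries (16.9%). Pool 2 was highest for 58.6% of the top circles seen in all 3 libraries, against 33.7% of these genes, which were most often highest in pool 1 (48.7%). Each pool is 1 library of each kind, so these differences have no test. The summed markers of muscle, gut, fat body, head glands and nerve were highest in pool 1, as given above. Their part in the differences between pools was not tested.

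The largest ratio among the top 10% was in LOC411347 (CASK-like, a scaffold protein of membrane junctions), at 1985, 398 and 3979 SRPBM, with FPKM of 15.4, 13.3 and 11.8. The circle of LOC100577472 (ISL-1-like, a LIM homeobox transcription factor) on an unplaced scaffold had 13552, 1664 and 3113 SRPBM, and the FPKM of the gene was 3.83, 0.574 and 0.490. For this gene both kinds of library were highest in pool 1. An unassigned circle on LG8 had 4974, 639 and 1494 SRPBM, and a circle of LOC408583 (a calponin homology domain gene) 4629, 615 and 1306. A circle of LOC409782 (pikachurin-like, an extracellular matrix protein) had 518, 3667 and 2193 SRPBM. The gene's own FPKM was close to level over pools for LOC408583 (137, 151 and 130) while its circle was 7.53-fold apart.

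Genes that gave circles were long rather than highly expressed. Of the 10271 listed protein-coding genes, 2119 (20.6%) were sources. Their median gene span was 23534 bp, against 3048.5 bp for the other 8152, while the median of the mean FPKM was 15.7 and 14.9. By quintile of gene span, from short to long, 0.827%, 3.12%, 6.72%, 21.7% and 70.8% of genes were sources. By quintile of FPKM, from low to high, the shares were 15.5%, 25.3%, 18.6%, 19.3% and 24.4%. Among the longest quintile of genes alone, they were 54.2% in the lowest FPKM quintile and 73.2% to 77.3% in the others. Across sources, the number of circles followed gene span (rho 0.59), as did their summed SRPBM (rho 0.52, 2119 genes).

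The summed circle level of a gene was only weakly related to its RNA-seq level. Spearman's rho between summed SRPBM and FPKM in the same pool number was 0.130, 0.128 and 0.155 over 1753, 1604 and 1899 source genes, as a description across genes. The value depended on which genes were taken: in median over pools it was 0.130 for all source genes, 0.0204 for those with FPKM of 1 or more and 0.181 with junctions of at least 2 libraries. As examples, 2 genes of the strongest circles follow. They were picked by circle level, so they cannot show the relation itself. The phosphodiesterase gene LOC410379 had FPKM of 12.1, 18.7 and 20.9 beside its circle of 87612 to 169735 SRPBM. The heparan sulfate enzyme LOC413242 had FPKM of 121, 306 and 206, with a circle of 94895 to 118705 SRPBM. SRPBM and FPKM are different scales, so the 2 are given side by side and not as a ratio.

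Genes known to promote or limit back-splicing in flies and mammals were mostly expressed, and some were sources themselves. Of 12 matched features for circle formation factors, 11 had a mean FPKM of 1 or more and 4 were sources (33.3%, against 20.6% of all coding genes). These 4 sources span 17912 bp or more and the other features at most 11986 bp. In the longest quintile of coding genes, from 12603 bp, 70.8% were sources. Every coding gene outside the lowest FPKM quintile had a mean of 1.62 or more, so the FPKM cut says little about a list. Muscleblind, a splicing factor whose own exon forms a circle in flies, was matched to LOC410758, with 12 circles at 23295, 19322 and 17098 SRPBM and FPKM of 6.82, 6.25 and 6.63, and to LOC725043, with 1 circle. The other sources were held out wings (LOC725878), an RNA-binding protein of the quaking family, with 5 circles at 7779, 5186 and 8189 SRPBM, and Hrb27C (LOC409961), an hnRNP protein, with 5 circles at 1198, 2171 and 1598. Adar, which edits double-stranded RNA, stood at 15.97, 27.7 and 23.7 FPKM and maleless (LOC413074), a helicase, at 20.7, 30.3 and 32.2, with 0 circles each. Of 7 matched turnover and export factors, all had a mean FPKM of 1 or more, and 2 were sources (28.6%, against 20.6% of all coding genes). GW182 (LOC411646) and rasputin (LOC551602) had 1 circle each, and that of rasputin was in pool 2 alone (0, 277 and 0 SRPBM).

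Genes known as circle hosts from fly or mammal work were sources here in 13 of 18 matched features (72.2%, against 20.6% of all coding genes), with 135 circles. Most of these features span more than 12603 bp, the lower bound of the longest quintile of coding genes, where 70.8% were sources. All 13 sources lie in that class, and of the features in it only that of ankyrin 2 (15452 bp) had 0 circles. The remaining features without circles are shorter, so the 72.2% covers a wider set than that class. Laccase 2, Pde8, osa (LOC412046) and the muscleblind feature LOC725043 had circles, but none in all 3 libraries. Dscam, a neuronal adhesion and immune receptor gene with many splice forms, had 29 circles at 35800, 35074 and 29903 SRPBM. Plexin A (LOC410785), a semaphorin receptor, had 23457, 40658 and 24838 SRPBM, of which 98.9% lay in 1 of 5 circles. HIPK (LOC408664), a nuclear kinase, had 13 circles at 21752, 33554 and 27324, and FoxO (LOC727091), a transcription factor of insulin signalling, 7 circles at 19821, 21010 and 20963. The pair of Rims genes, for active zone proteins of synapses, had 19 and 22 circles while their mean FPKM was 3.08 and 1.09. The features matched to ankyrin 2, UBXN7 and Iswi had 0 circles.

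Of the 12 ovary and germ line features, 2 were sources (16.7%, near the 20.6% of all coding genes), nanos with 2 circles and orb (LOC411907) with 1, none in all 3 libraries, and their summed SRPBM was 949, 398 and 533. The muscle list had 3 sources among 11 features (27.3%, against the same 20.6%), with summed SRPBM of 41184, 40344 and 33047, nearly all of it from myosin heavy chain (LOC409843), the motor of the thick filament. That gene had 34 circles at 40483, 40344 and 32389 SRPBM, 18 of them in all 3 libraries, and FPKM of 72.8, 64.9 and 68.1. The sodium channel gene Para had 16 circles at 4348, 4451 and 3969 SRPBM, a gut trypsin (LOC724259) had 2 circles and the royal jelly proteins had 0. The ovary and germ line features spanned at most 12282 bp, while myosin heavy chain spans 33343 bp and Para 59858 bp.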

How the data were processed

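For the 3 circRNA libraries, RNA was depleted of rRNA and treated with RNase R before a strand-specific kit, per the labels' protocols. The deposited circRNA values are a normalised signal (SRPBM) per junction, and the deposited mRNA and lncRNA values are FPKM per gene; both were computed by the authors. Tools listed, with no roles, in the submitters' processing notes are HTSeq 0.6.1, TopHat2 2.0.9, Bowtie2 2.0.6 and a Bowtie of no stated version. The circle caller and the genome build are not given in the sources used here, and positions, source genes, symbols and product names are those of the deposited tables.

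Junctions with SRPBM above 0 counted as detected. Span is end minus start plus 1. Boundaries were matched exactly by linkage group, strand and position. Dominance is the strongest circle's share of the gene's summed mean SRPBM. Circles named are the 20 with the highest mean SRPBM; source genes, boundaries, spans and library ratios were named by fixed ranks. The 8 circles at 0 in a library were chosen after their values were seen. Members and lists were chosen with earlier results of these data known. Lists were matched by product name, and NF90, DDX39, CAMSAP and Rsmep2 were not matched. Strand share, span, shared boundaries, genes with several circles, dominance and detection in all libraries were tested on simulated data. Every simulated junction was above 0 in all 3 libraries, so missing detection was not simulated. The other measures were not tested in this way. All were computed with Python 3.11.15, pandas 2.3.3 and numpy 2.4.6. Alternatives were other detection rules, a level minimum, coding sources only, weighting by SRPBM, a boundary tolerance of 5 bp, other scales and leaving out each library. The miRNA libraries were not used here.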

Additional observations from a re-analysis of the deposited data

How the results depend on the processing

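Of the 12 results, the strand difference and the level difference by detection were judged by sign alone, and both kept their sign throughout. They ran from -0.430 to -3.10 percentage points and from 1.17 (above the median) to 2.01. The number of junctions was judged by a fixed fold and the others by the SD over libraries. For these no direction was at stake. By these rules 44 values moved and 46 did not, and the differences judged by sign count as not moved whatever their size. The cause of the moves was not tested beyond each alternative's construction. Junctions numbered 3825 in all 3 libraries and 5897 at or above the median mean SRPBM. The share of LG1 was 15.1% with at least 2 libraries, 15.7% with all 3, 15.3% above the median and 15.8% weighted by SRPBM. Under all 3 libraries, above the median and weighted by SRPBM, the median span was 2624, 2714 and 1815 bp. Shared boundaries held 74.7% with at least 2 libraries, 69.2% with all 3, 73.7% above the median, 79.5% for coding sources and 91.4% weighted, and genes with several circles 56.4%, 53.5%, 56.1%, 61.4% and 96.7% in the same order. Dominance was 69.1% above the median and 31.7% from a 75% share. Detection in all libraries was 64.4% above the median. The median rho between libraries was 0.803 with all 3 libraries, 0.762 above the median, and Pearson's r was 0.830 and 0.836 on log2(SRPBM + 1) and log2(SRPBM + 10). The same strongest circle held in 67.9% with at least 2 libraries, 72.7% with all 3 and 66.5% above the median. The circle to host rho was 0.181 with at least 2 libraries, 0.176 with all 3, 0.165 above the median, 0.0986 for coding sources and 0.0204 at FPKM of 1 or more, where most of the relation was gone.

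With 1 library left out, the share of LG1 ranged from 14.8% to 15.02%, shared boundaries from 75.3% to 76.7%, dominance from 68.5% to 71.02%, detection in all libraries from 45.9% to 46.9%, rho between libraries from 0.762 to 0.779 and the same strongest circle from 69.2% to 71.3%. The last, and detection in all libraries, then ask for agreement of 2 libraries instead of 3.

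No paired analysis was possible because the libraries form 1 group and no result comes from a test between groups. Each pool is 1 library of unknown read depth: no difference between pools was tested, and a value of 0 cannot be told apart from a level below detection.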

Other observations

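Circles that the authors' table leaves at 0 in 1 or more libraries despite a mean in the top 10% numbered 8, singled out after their values were seen. An unassigned circle on LG4 (6.81 kb) had 15041, 0 and 10184 SRPBM. A circle of LOC725336 (lola-like, a BTB transcription factor family in flies) had 0, 10192 and 0, while the FPKM of the gene was 17.6, 30.1 and 25.8. A circle of LOC408958 had 7779, 8527 and 0 SRPBM beside FPKM of 20.9, 22.4 and 25.6. A pair of Sox genes, LOC726298 (Sox-15) and LOC727284 (Sox-10-like), gave 3453, 7381 and 0 SRPBM and 4402, 0 and 5755 SRPBM. Circles of a Dscam-like gene (LOC408688) and of LOC412091, an ADAM-type metalloproteinase gene, were at 0 in pool 2 alone. A circle of LOC412859, a further gene with a Dscam product name, was at 0 in pool 1 alone. In each of these genes the RNA-seq libraries had values above 0 in every pool.

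Of the 170 listed miRNA genes, 35 lay inside the span of at least 1 circle on the same strand. The same share for other listed genes was not computed, so the count is a description. For most of the 35 no such circle was in all 3 libraries. Mir2-1, Mir2-2, Mir2-3, Mir13a, Mir13b and Mir71 each lay within 3 circles of LOC726544 with the same summed SRPBM (669, 0 and 616). Mir6049 lay within a single circle of 437 bp without a source gene, at 11577, 16813 and 12993 SRPBM. Mir6056 lay within 11 circles, some of them of tensin-1, with the shortest of 20013 bp, and Mir971 within 6 circles of LOC410006, with the shortest of 10451 bp. A span includes introns, and whether the hairpin is part of the ring was not tested.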
